A study of Danio rerio with 20 samples.

Results

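The region described here is a stretch of zebrafish chromosome 5 with 24 CpGs, read as a targeted bisulfite amplicon in adult gonads. Its CpGs lie between positions 44944720 and 44945152 of the GRCz11 assembly, counted from 1, over 433 bp. They were chosen by position and by depth, with 10 reads or more required in 4 or all 5 samples of each group. Of 31 positions listed in this stretch, 24 met the rule, out of 135 CpGs that met it in the whole series. The other 7 positions held 1 to 4 reads in the samples that listed them, 12 reads in all, and 0 of these were methylated. No 2 of the 24 positions were closer than 3 bp, so each CpG was listed at 1 position. This spacing does not tell whether 1 strand was read or both were merged. No gene is named for the region, because no annotation of this assembly was used.

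All fish were of the AB laboratory strain and were sampled at 90 days of age. The 4 groups of 5 gonad samples were 3H LPS, 3H control, 6H LPS and 6H control. Fish of the LPS groups had received lipopolysaccharide of Pseudomonas aeruginosa, an outer-membrane component of this bacterium, as larvae. The labels give neither the sex of the fish, nor the meaning of 3H and 6H, nor whether each sample was a separate fish or a pool, so the p-values measure the spread between these samples and this may in part be technical.

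In vertebrates, DNA methyltransferases add a methyl group to the cytosine of a CpG, and maintenance copies the mark to the new strand at each cell division. CpG-rich stretches near active promoters are usually free of the mark, while most other CpGs carry it, and stretches at a transition between both states hold CpGs at intermediate levels. Gonads contain germ cells and somatic cells, so an intermediate level in a bulk sample can come from cells or alleles that differ. Bisulfite leaves methylated cytosines intact and lets unmethylated ones be read as thymine, and the percent given here is the share of reads with cytosine at the CpG.

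The 24 CpGs did not form a simple ramp. Methylation rose over the leading CpGs to 37.2% ± 7.33 at position 44944770, dropped to 4.12% ± 1.61 at position 44944858, stayed mostly low through the centre of the region, and climbed to a sharp peak of 49.3% ± 7.07 at position 44945108 (SD, n = 20 samples each). The edges were between these extremes, at 13.3% ± 4.22 at the leading CpG, 44944720, and 20.1% ± 2.55 at the trailing CpG, 44945152 (SD, n = 20). By mean over all samples, 5 CpGs were under 10%, 16 lay from 10% to 30% and 3 were at 30% or more. A straight line described little of this. Across the 24 CpG means, Pearson r with position was 0.132 and Spearman rho was 0.182, given as a description because the CpGs were read on the same amplicon.

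**Figure D1:**
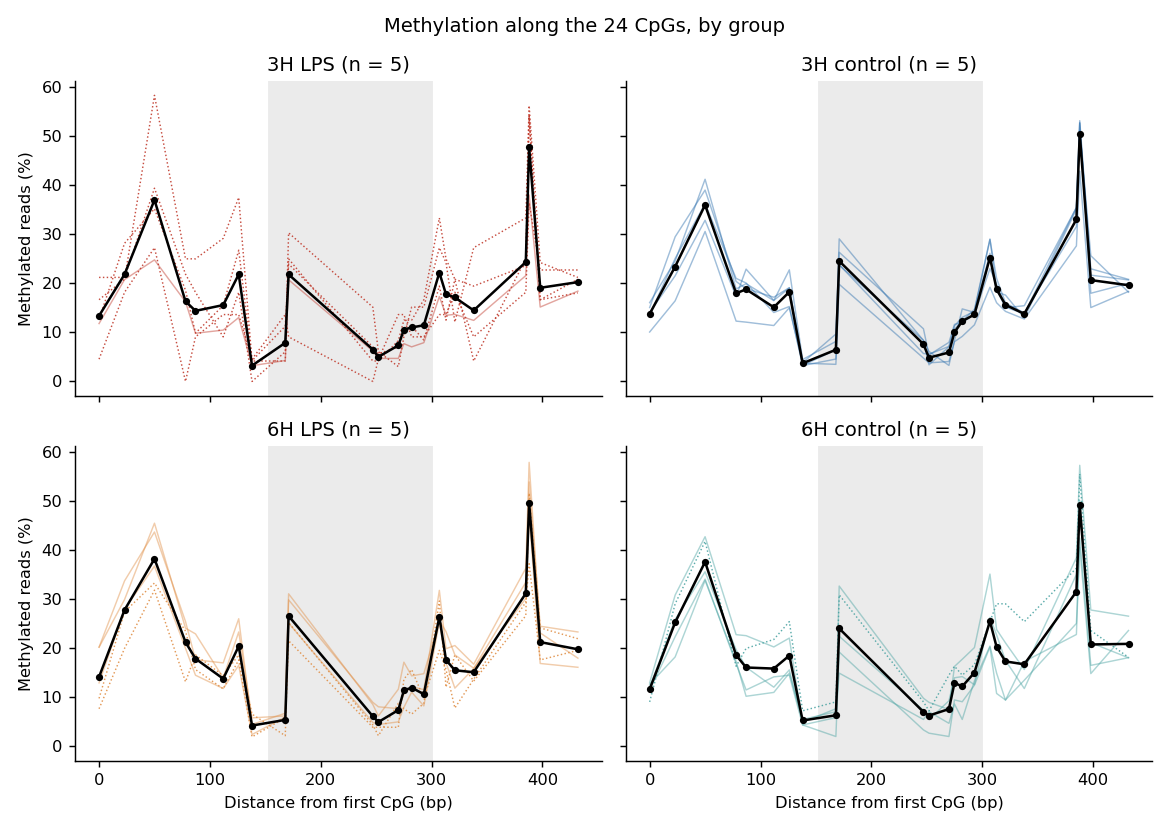
Percent of methylated reads (vertical axis) against distance from the leading CpG in bp (horizontal axis), 1 panel per group. Thin lines are samples, dotted where the median was under 100 reads per CpG, the black line with points is the group mean, and the grey band marks the central 8 CpGs. All 4 group means peak at the CpG of position 44945108, between 47.8% and 50.5%, and are lowest at position 44944858, between 3.23% and 5.30%.

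Split by order into 3 blocks of 8 CpGs, the region had its lowest level in the centre of every sample. The leading block (44944720 to 44944858) averaged 17.9% ± 6.03 in 3H LPS and 18.4% ± 2.66 in 3H control samples, and 19.7% ± 3.39 in 6H LPS and 18.6% ± 3.08 in 6H control samples (SD, n = 5 each). The central block (44944888 to 44945013) averaged 10.2% ± 1.76 in 3H LPS and 10.7% ± 1.58 in 3H control samples, and 10.6% ± 2.26 in 6H LPS and 11.5% ± 3.46 in 6H control samples (SD, n = 5 each). The trailing block (44945027 to 44945152) averaged 22.9% ± 3.97 in 3H LPS and 24.7% ± 2.19 in 3H control samples, and 24.6% ± 3.32 in 6H LPS and 25.3% ± 5.27 in 6H control samples (SD, n = 5 each). The central block was the lowest of the 3 in 20 of 20 samples, and the trailing block was the highest in 19. The exception was 3H LPS replicate 3, with 27.1% in the leading and 25.0% in the trailing block.

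Within this broad shape the profile was jagged. The 5 CpGs with means under 10% were 44944858, 44944888, 44944967, 44944972 and 44944990, all of them in or just before the central block. In the middle of them, 44944891 averaged 24.3% ± 5.83 (SD, n = 20), although it lies 3 bp from 44944888 at 6.53% ± 2.88 (SD, n = 20). At 44944891 the 5 samples had 9.09%, 20.7%, 25.0%, 23.9% and 30.3% in 3H LPS, and 23.8%, 29.1%, 26.3%, 23.7% and 19.8% in 3H controls. The corresponding values at 44944888 were 13.6%, 4.27%, 4.17%, 11.3% and 6.06% in 3H LPS, and 4.57%, 8.16%, 9.66%, 6.45% and 3.49% in 3H controls. In the 6H set 44944891 was at 29.9%, 31.1%, 25.2%, 21.6% and 25.3% in LPS samples and at 15.0%, 22.5%, 30.9%, 19.3% and 32.7% in controls, while 44944888 stayed between 2.03% and 9.09% in all 10. The step up from 44944888 to 44944891 was thus present in 19 of 20 samples, by 17.7 percentage points ± 6.93 on average (SD, n = 20). The sample without it was 3H LPS replicate 1, with 22 reads.

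The other close pair, 44945105 and 44945108, also lies 3 bp apart and differed by 19.2 percentage points ± 5.08 (SD, n = 20), upward in all 20 samples. Just behind it came the largest step between neighbours, a drop of 28.8 percentage points ± 5.78 from 44945108 to 44945118, which is 10 bp away (SD, n = 20), downward in all 20 samples. At 44945108, the most methylated CpG, the values were 36.4%, 38.0%, 54.2%, 54.2% and 56.2% in 3H LPS and 52.6%, 52.8%, 53.2%, 51.0% and 42.9% in 3H control samples. Those of the 6H set were 57.9%, 53.9%, 47.3%, 37.3% and 51.6% in LPS and 42.5%, 50.1%, 55.6%, 40.6% and 57.3% in control samples. The groups overlapped at this CpG in both sets. It was the highest of the 24 CpGs in 19 samples, and in 3H LPS replicate 3 the highest was 44944770 at 58.3%.

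The least methylated CpG, 44944858, was at 4.55%, 3.21%, 4.17%, 4.23% and 0% in 3H LPS and at 3.23%, 4.47%, 3.81%, 3.27% and 3.73% in 3H control samples. The 6H samples were at 4.50%, 5.84%, 2.44%, 1.96% and 6.59% in LPS and at 5.51%, 4.93%, 7.27%, 4.39% and 4.39% in control samples. The value of 0% came from 0 of 33 reads in 3H LPS replicate 5, which allows a level of up to 9.09% (3 reads of 33, counting error only). This CpG was alone the lowest of the 24 in 12 of 20 samples and shared the lowest level with other CpGs in 2 more, 3H LPS replicate 3 and 6H control replicate 3.

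Over the 23 steps between neighbouring CpGs, 8 went the same way in all 20 samples, 4 upward and 4 downward. Among the 13 samples with a median of at least 100 reads per CpG, 13 steps did, 8 upward and 5 downward. Each of these 13 samples shared the direction of the mean step at 17 to 23 of the 23 steps, and each of the 7 shallower samples at 12 to 19. The distance between CpGs set no strict limit on the gap between them. The 9 pairs at most 10 bp apart differed by a median of 4.17 percentage points, with a range from 0.635 to 28.8, and the other 267 pairs by a median of 8.90. Between the mean level and the number of other CpGs within 50 bp, which was 2 to 9, Pearson r was -0.250 and Spearman rho was -0.294 over 24 CpGs, given as a description. No sequence is shown for the region, since no genome of the GRCz11 build was used.

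The spread between samples was smaller than the spread along the region. The 24 CpG means had an SD of 10.5 percentage points, against a median over CpGs of 4.83 for the SD between samples after removal of group means. That SD was lowest at 44944858, with 1.53, and highest at 44944770, with 7.94 percentage points. At 44944770 the samples had 27.3%, 24.8%, 58.3%, 35.2% and 39.4% in 3H LPS and 36.2%, 41.2%, 39.0%, 32.9% and 30.6% in 3H controls. Values of the 6H samples were 43.7%, 45.5%, 36.8%, 33.3% and 31.9% in LPS and 33.9%, 35.6%, 41.8%, 34.1% and 42.8% in controls. The widest group here was 3H LPS, and its extreme value of 58.3% came from replicate 3 with 24 reads.

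CpGs of the region tended to be high or low together in a sample. After removal of group means, the 276 pairs of CpGs had a median correlation of 0.444 over 20 samples, and 245 pairs were positive. Over the 13 deeper samples the median was 0.664, with 266 pairs positive, and the leading principal component held 75.2% of the variance. These correlations are descriptions, since CpGs of a sample were read on the same fragments. Some samples lay on 1 side of their group at nearly all CpGs. Against the mean of the other 4, 3H LPS replicate 2 was below at 24 of 24 CpGs, 6H LPS replicate 2 was above at 23 and 6H control replicate 4 was below at 23. The sample with the most reads among these, 3H control replicate 5 with a median of 3563, was below the mean of the other 3H controls at 23 of 24 CpGs and below each of them at 20, and at 10 of these its exact 95% binomial interval lay below all of theirs. PCR reads without molecular identifiers are not independent molecules, so such intervals cover counting error only.

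Depth differed more between samples here than in any of the other 7 regions that met the read rule. Parts of the series with fewer reads than the rule asks were not compared. Reads were nearly constant along the amplicon within a sample, so a shallow sample was shallow at all 24 CpGs. The median number of reads per CpG was 22, 468, 24, 71 and 33 in 3H LPS samples and 4758, 1947, 2281.5, 703 and 3563 in 3H controls. In the 6H set it was 311, 257, 2210, 51 and 91 in LPS samples and 127, 365, 55, 296 and 478 in controls. Every 3H LPS sample was thus shallower than every 3H control, while the 6H groups overlapped. The libraries as a whole overlapped, since the methylation calls per sample over all regions ranged from 601096 to 1443230 in 3H LPS and from 721113 to 1858242 in 3H control samples. The region took between 0.0547% and 1.06% of a sample's calls in 3H LPS and between 2.34% and 8.67% in 3H controls. Of the calls of 6H samples it took 0.164% to 5.03% in LPS and 0.0855% to 0.576% in control samples. Between the deepest and the shallowest sample the depth differed by a factor of 216 here, against factors from 10.6 to 123 in the other 7 regions, and 7 samples had a median under 100 reads here, against 0 in each of the others.

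**Figure D2:**
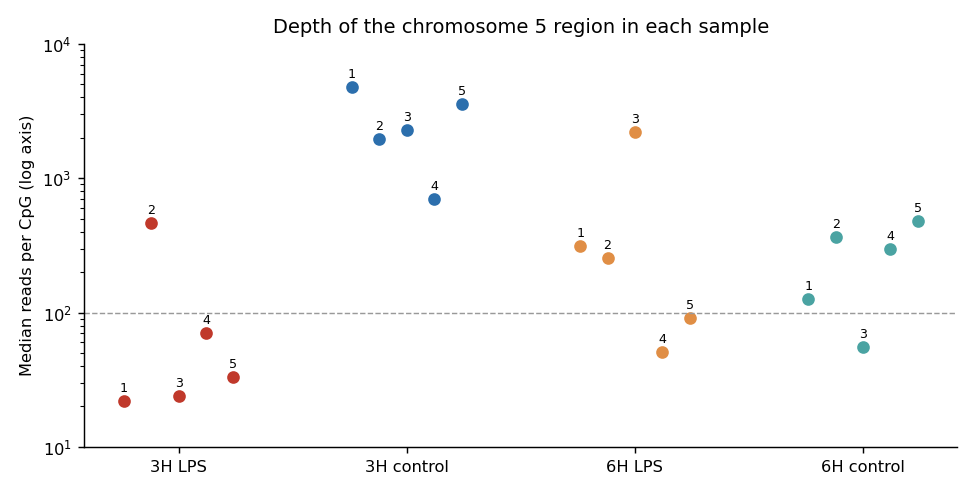
Median reads per CpG of the region on a log axis, 1 point per sample with its replicate number, by group. The dashed line marks 100 reads: 4 of the 5 3H LPS samples lie under it, together with 2 6H LPS samples and 1 6H control, while all 3H controls lie above 700.

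At such depths 1 read moves a CpG of 3H LPS replicate 1 by 4.55 percentage points, and one of 3H control replicate 1 by 0.0210. The exact 95% binomial interval at 44945108 reached from 17.2% to 59.3% in 3H LPS replicate 1 and from 51.2% to 54.1% in 3H control replicate 1. In 3H LPS replicate 1, 2 further CpGs were at 0%, 44944798 and 44944967. At 22 reads this allows up to 13.6% (3 reads of 22, counting error only), and the exact 95% binomial interval reached 15.4%. The profile was still recognisable: its Pearson correlation with the mean of the other 19 samples, over 24 CpGs, was 0.749 in this sample and between 0.863 and 0.990 in the other 19. Averaged over the 7 samples under 100 reads, the profile correlated with that of the 13 deeper samples at 0.985 and differed from it by at most 4.29 percentage points, at position 44944846.

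To see how far depth went with scatter, the root mean square deviation of each sample from the mean of the other 4 of its group was taken over the 24 CpGs. It was 8.68, 5.79, 9.86, 4.01 and 7.29 percentage points in 3H LPS samples and 2.12, 2.78, 2.74, 2.41 and 5.24 in 3H controls. Values of the 6H set were 4.83, 4.65, 2.82, 5.20 and 4.99 in LPS samples and 6.05, 2.56, 6.47, 5.94 and 6.38 in controls. Deeper samples deviated less. Counting error alone gives this direction, so the p-values below do not test for any other source of scatter. Each deviation also uses the other 4 samples of its group, so the 20 values are not independent and the permutation p is approximate. Over 20 samples the deviation fell with log10 of the median reads (Pearson r = -0.747, permutation p = 0.00028, adjusted p = 0.00168, and Spearman rho = -0.690, permutation p = 0.00104, adjusted p = 0.00312, with 6 p-values adjusted together), and r was -0.664 without the 2 samples farthest from the median depth (permutation p = 0.00252). Within the 3H set r was -0.809 (permutation p = 0.0106, adjusted p = 0.0159, n = 10), and Spearman rho was -0.806 (permutation p = 0.00758, adjusted p = 0.0152). Without its 2 farthest samples r was -0.628 and no longer passed (permutation p = 0.124, n = 8), so the call in this set needs those samples. Within the 6H set r was -0.567 and did not pass (permutation p = 0.107, adjusted p = 0.129, n = 10). Because the deviation is measured within groups and the 3H LPS group is shallow as a whole, depth and group cannot be fully told apart here.

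The deviation that read counting alone would give was computed from the same reads. The 7 samples under 100 reads had 0.755 to 1.27 times that value. The 13 deeper samples had 0.993 to 6.64 times that value, and the highest was 3H control replicate 5. In the shallow samples the scatter was thus about as large as counting error, and in the deeper ones mostly larger.

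**Figure D3:**
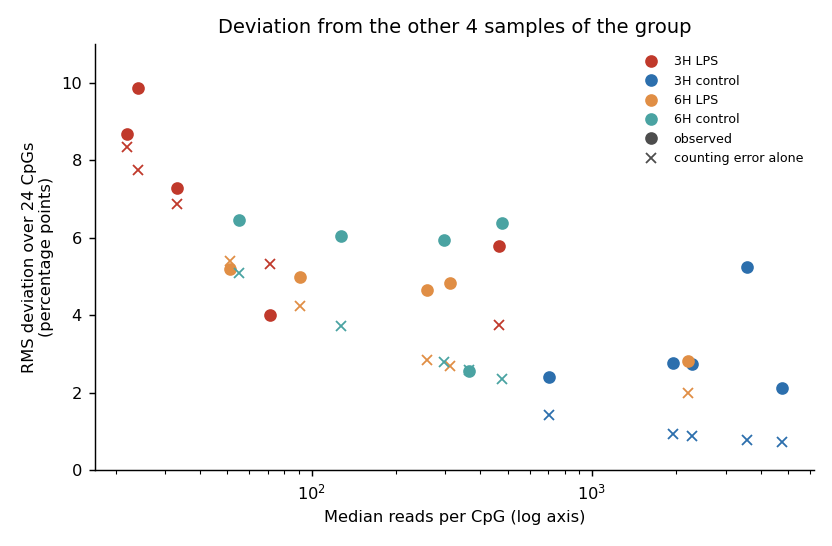
Root mean square deviation of a sample from the other 4 of its group over 24 CpGs, in percentage points, against median reads per CpG on a log axis. Filled circles are observed values and crosses are the value from read counting alone, coloured by group. The circles lie near the crosses under 100 reads and mostly above them in deeper samples, as far as 5.24 against a counting value of 0.789 in 3H control replicate 5.

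LPS samples were compared with controls within each set to ask whether exposure of larvae went with another level or shape of methylation in adult gonads. Neither the mean of the region, nor its slope, nor the depth of its central dip differed beyond the spread between samples in the 3H or the 6H set. The region mean was 13.3%, 13.5%, 21.0%, 17.5% and 19.8% in 3H LPS samples and 18.2%, 19.5%, 19.4%, 18.2% and 14.3% in 3H controls. LPS values lay on both sides of the controls. The difference was -0.891 percentage points (exact 95% permutation interval -5.48 to 3.53, exact permutation p = 0.675, adjusted p = 0.675 over the 8 regions). It was 0.0472 without 3H LPS replicate 1. The 6H means were 21.2%, 21.5%, 16.5%, 15.8% and 16.5% in LPS samples and 14.7%, 18.3%, 22.2%, 14.5% and 22.7% in controls. The difference of -0.158 percentage points (interval -6.13 to 4.95, exact permutation p = 0.937, adjusted p = 0.937) was above 0 without 6H LPS replicate 3, 4 or 5 or without 6H control replicate 3 or 5, and reached 0.893. Over both sets it was -0.525 (permutation p = 0.705, adjusted p = 0.805), and 0.000914 without 6H control replicate 5.

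Shallow samples weighed on these means. Without the 7 samples under 100 reads, 3H LPS keeps replicate 2 alone, and the 3H difference was -4.42 percentage points (exact permutation p = 0.167, the smallest that 1 against 5 can give). Without the 3 samples under 50 reads, which leaves 2 in 3H LPS, it was -2.41 (exact permutation p = 0.143, adjusted p = 0.381). The difference between 6H and 3H LPS samples was 6.26 without samples under 100 reads (exact permutation p = 0.250, the smallest possible) and 2.81 without those under 50 (exact permutation p = 0.238). The LPS effect in 6H exceeded that in 3H by 6.62 and 2.25 under these settings (permutation p = 0.0635 and 0.451, adjusted p = 0.169 and 0.781), where the first value rests on 1 3H LPS sample.

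The slope of percent methylated on position was above 0 in 19 of 20 samples. It averaged 0.898 ± 1.45 percentage points per 100 bp in 3H LPS and 1.27 ± 0.373 in 3H control samples (SD, n = 5 each), and only 3H LPS replicate 3, with -1.31, sloped down. The difference of -0.377 (interval -2.03 to 1.06, exact permutation p = 0.667, adjusted p = 0.754) was 0.176 without that sample. In the 6H set the slope averaged 0.689 ± 0.792 in LPS and 1.46 ± 0.581 in control samples (SD, n = 5 each). Its 5 LPS values were 0.199, 0.447, 0.444, 0.264 and 2.09, and the 5 control values were 0.962, 1.65, 2.0, 0.729 and 1.95. All LPS samples but replicate 5 lay below all controls. The difference of -0.768 percentage points per 100 bp (interval -1.65 to 0.333) did not pass (exact permutation p = 0.0952, adjusted p = 0.381). Leaving out 1 sample at a time, this 6H difference ranged from -1.12 to -0.633. The value of -1.12 was that without 6H LPS replicate 5 (exact permutation p = 0.0159, adjusted p = 0.0635), which did not pass after adjustment. The LPS samples left all lay below all controls, so no ordering could separate the groups further, and this test could hardly pass. Over both sets the slope differed by -0.572 (permutation p = 0.162, adjusted p = 0.432), and by -0.296 without 3H LPS replicate 3. It was -0.658 without samples under 100 reads, where 3H LPS keeps replicate 2 alone. Without those under 50 it was -0.657 (permutation p = 0.0257, adjusted p = 0.103), which did not pass either. Within the 6H set the slope difference was -0.959 without samples under 100 reads (exact permutation p = 0.0571, adjusted p = 0.229), which also did not pass.

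The dip was measured as the mean of the leading and trailing blocks minus the central block, a measure chosen after the profile was seen. It averaged 10.2 ± 3.30 percentage points in 3H LPS and 10.9 ± 0.935 in 3H control samples, and 11.6 ± 1.74 in 6H LPS and 10.5 ± 0.859 in 6H control samples (SD, n = 5 each). It was above 0 in all 20 samples, from 6.25 to 15.1, both ends of this range being 3H LPS samples with 22 and 24 reads. The difference between LPS and control samples was -0.637 in the 3H set (interval -4.12 to 3.00, exact permutation p = 0.714, adjusted p = 0.898) and 1.07 in the 6H set (interval -0.935 to 2.97, exact permutation p = 0.270, adjusted p = 0.540). The 3H difference was 0.354 without 3H LPS replicate 1 and -1.86 without 3H LPS replicate 3, and the 6H difference was 0.511 without 6H LPS replicate 1 and 1.70 without 6H LPS replicate 4.

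**Figure D4:**
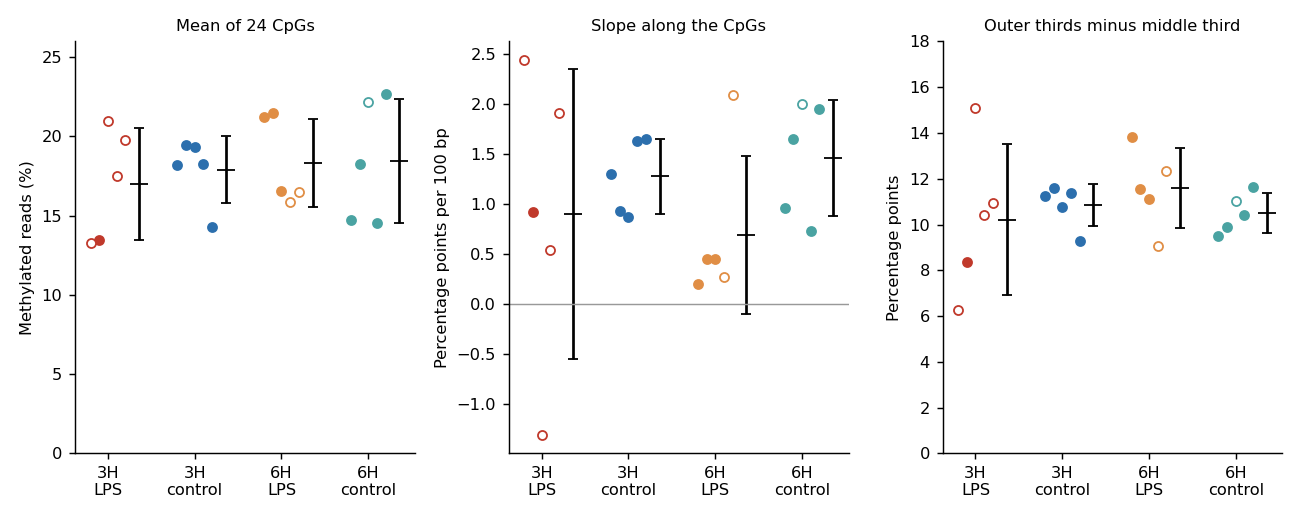
Mean of the 24 CpGs in percent, slope in percentage points per 100 bp, and outer blocks minus central block in percentage points, 1 point per sample by group. Open points are samples with a median under 100 reads, and the black bars show mean ± SD (n = 5). The groups overlap in all 3 measures, and the 3H LPS samples spread widest in slope, from -1.31 to 2.44.

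At single CpGs none of the 24 was called in the 3H set (edgeR quasi-likelihood test, adjusted over 135 CpGs), where 0% of the 135 CpGs were called. An unadjusted p under 0.05 was reached by 1 of the 24, or 4.17%, against 10.4% of all 135. Limma and the exact permutation test per CpG also called 0 of the 24, with 1 each at an unadjusted p under 0.05. LPS samples were lower at 14 and higher at 10 of the 24 CpGs, so lower at 58.3%, against 71.9% of all 135. The median difference was -0.739 percentage points, against -0.212 over all 135. The 135 include regions with means of 0.427% to 0.604%, where every sample had a median of 1168 reads or more. Shares and medians over all 135, here and below, are thus not for CpGs of like depth and level. The smallest p was at position 44945105, the shoulder of the trailing peak. It had 18.2%, 21.6%, 25.0%, 23.6% and 33.3% in 3H LPS and 31.6%, 35.5%, 35.5%, 35.1% and 27.6% in 3H control samples. Of the LPS samples, 4 lay below all controls, but 3 of these 4 had 72 reads or fewer. The means were 24.3% ± 5.64 in LPS and 33.0% ± 3.44 in controls (SD, n = 5 each), a log2 odds difference of -0.63 (edgeR adjusted p = 0.268). The best-read LPS sample, replicate 2, had an exact 95% interval of 17.9% to 25.6% there. This sample lay below the mean of the other 3H LPS samples at all 24 CpGs, so its low level was not particular to 44945105.

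Among 6H samples 0 of the 24 CpGs were called, while 0.741% of all 135 were, which is 1 CpG in another region. At an unadjusted p under 0.05 edgeR and limma had 1 of the 24 each and the exact test 0, against 7.41% of all 135 with edgeR. Here too 14 were lower and 10 higher in LPS samples, so lower at 58.3%, against 31.1% of all 135. The median difference was -0.302 percentage points, against 0.11 over all 135. The CpG with the smallest p was 44945013, the last of the central block, at 11.6%, 14.8%, 8.28%, 9.80% and 8.79% in 6H LPS and 13.4%, 12.6%, 16.7%, 12.5% and 20.2% in 6H control samples. All LPS samples but replicate 2 were below all controls. The log2 odds difference was -0.56 (edgeR adjusted p = 0.505). The same CpG had 9.09%, 7.91%, 16.7%, 8.45% and 15.2% in 3H LPS and 14.3%, 14.7%, 13.6%, 14.1% and 11.5% in 3H control samples, where groups overlapped. Over both sets it had the smallest p of the region as well, with a log2 odds difference of -0.49 (edgeR adjusted p = 0.434). There 0 of the 24 were called, beside 0.741% of all 135. At an unadjusted p under 0.05 edgeR, limma and the exact test had 1 of the 24 each, or 4.17%, against 4.44% of all 135 with edgeR. At 44945105 the 6H samples had 36.3%, 33.5%, 30.2%, 29.4% and 26.7% with LPS and 22.8%, 35.1%, 36.4%, 25.1% and 38.5% in controls, and these groups overlapped.

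**Figure D5:**
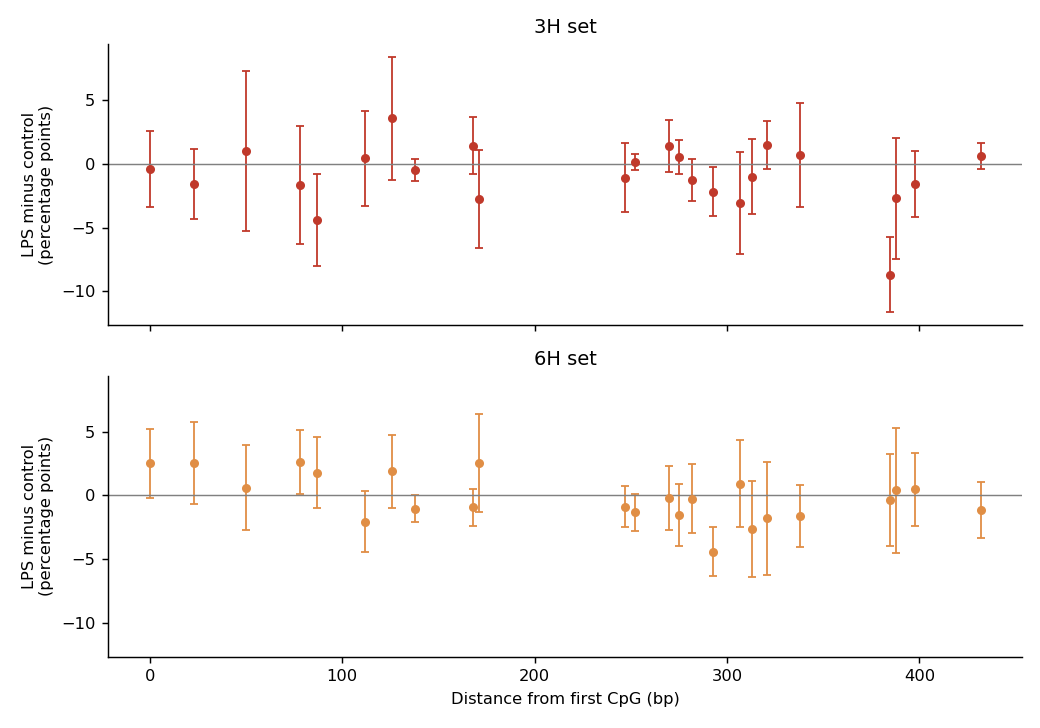
Difference of group means, LPS minus control, in percentage points at each of the 24 CpGs against distance from the leading CpG in bp, for the 3H and the 6H set. Error bars are the standard error of the difference from the SDs of 5 samples per group. The 3H differences reach from -8.71 to 3.57 and the 6H differences from -4.41 to 2.65. In the 6H set the leading 5 CpGs lie above 0 and the 6 CpGs from 44944967 to 44945013 below it. These runs were picked after the values were seen and are a description, since CpGs tended to be high or low together in a sample.

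The group profiles were closely alike. Across the 24 CpG means, 3H LPS correlated with 3H controls at a Pearson r of 0.975, and 6H LPS with 6H controls at 0.987, as a description of the shared shape. Pooling the reads of the 5 3H LPS samples gave a region mean of 14.6% instead of 17.0%, since replicate 2, the second lowest of them, held 75.7% of these reads. In 3H controls pooling gave 17.5% instead of 17.9%. Pooled 6H LPS reads, of which replicate 3 held 75.7%, gave 17.5% instead of 18.3%, and pooled 6H control reads gave 18.8% instead of 18.5%. The cause of the low depth of the 3H LPS samples was not tested, and their scatter and their depth cannot be told apart from exposure in this set.

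The sets were compared to show how far samples of the same treatment differed between 6H and 3H. Controls averaged 18.5% ± 3.91 in 6H and 17.9% ± 2.11 in 3H (SD, n = 5 each), a difference of 0.564 percentage points (interval -4.24 to 5.55, exact permutation p = 0.857, adjusted p = 0.976). It fell below 0 without 3H control replicate 5, to -0.342, and without 6H control replicate 3 or 5, to -0.363 and -0.487. LPS samples averaged 18.3% ± 2.78 in 6H and 17.0% ± 3.55 in 3H (SD, n = 5 each), a difference of 1.30 (interval -3.95 to 5.96, exact permutation p = 0.556, adjusted p = 0.741). It was 0.359 without 3H LPS replicate 1 and 2.30 without 3H LPS replicate 3. Slopes differed by 0.183 percentage points per 100 bp between controls (exact permutation p = 0.548, adjusted p = 0.889) and by -0.209 between LPS samples (exact permutation p = 0.722, adjusted p = 0.849). Between LPS samples it was 0.177 without 3H LPS replicate 1 and 0.0431 without replicate 5. The dips differed by -0.343 percentage points between controls (exact permutation p = 0.556, adjusted p = 0.762) and by 1.37 between LPS samples (exact permutation p = 0.413, adjusted p = 0.660). Between controls they reached -0.738 without 3H control replicate 5 and -0.0941 without 6H control replicate 1, and between LPS samples 0.376 without 3H LPS replicate 1 and 2.59 without 3H LPS replicate 3.

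No single CpG was called between the sets, neither in controls (edgeR, 0 of 24, with 0% of all 135) nor in LPS samples (0 of 24, with 0% of all 135). At an unadjusted p under 0.05 edgeR had 0 and 1, limma 0 and 0, and the exact test 1 and 0 of the 24, while 8.89% and 9.63% of all 135 were under it with edgeR. In controls the smallest p was at 44944858, whose values are given above. The 6H controls averaged 5.30% ± 1.20 and the 3H controls 3.70% ± 0.502 (SD, n = 5 each, edgeR log2 odds difference 0.48, adjusted p = 0.681). In LPS samples it was 44945105, with 31.2% ± 3.75 in 6H and 24.3% ± 5.64 in 3H (SD, n = 5 each, edgeR log2 odds difference 0.52, adjusted p = 0.489). This comparison shares its 3H LPS samples with the 3H comparison above.

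The LPS effect itself did not differ between the sets beyond the spread. For the region mean the 6H effect exceeded the 3H effect by 0.732 percentage points (permutation p = 0.791, adjusted p = 0.944). It was below 0, down to -0.255, when 3H LPS replicate 1 or 2, 6H LPS replicate 2, or 6H control replicate 1 or 4 was left out. For the slope it was -0.392 per 100 bp (permutation p = 0.631, adjusted p = 0.841), but -0.944 without 3H LPS replicate 3 and -0.00601 without 3H LPS replicate 1. For the dip it was 1.71 (permutation p = 0.340, adjusted p = 0.679), but 2.93 and 0.719 without the same samples. Of the 24 CpGs 0 were called, beside 0.741% of all 135, and 0 had an unadjusted p under 0.05 with edgeR, limma or the exact test, while 11.1% of all 135 did with edgeR. The smallest p was again at 44945105, with a log2 odds difference of 0.63 (edgeR adjusted p = 0.489).

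The region most like it in level was the one on chromosome 24, with 13 CpGs. Within samples the chromosome 5 region was 1.33 percentage points ± 4.61 higher (SD, n = 20, sign-flip permutation p = 0.208), and higher in 13 of 20. CpG means reached from 4.12% to 49.3% on chromosome 5 and from 3.97% to 43.1% on chromosome 24. The shallowest sample had a median of 22 reads on chromosome 5 and of 1308 on chromosome 24.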

How the data were processed

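Gonadal DNA of 20 samples was converted with bisulfite and sequenced as amplicons, per the labels' protocols. The submitters' processing notes list GRCz11, Bismark, Bowtie2, FastQC 0.11.6 and Trim Galore 0.4.5, without settings. The deposited tables hold 1 percent value per position, with methylated and unmethylated read counts beside it. Counts were used as deposited, and the deposited percent equalled the percent recomputed from them. No conversion control was used.

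Samples under 10 reads at a CpG were left out there. Tested CpGs at most 500 bp apart formed 8 regions of at least 3 CpGs. Means, slopes and dips were taken per sample without weights and compared by two-sided permutation tests over all arrangements, adjusted by the Benjamini-Hochberg method over the 8 regions. The smallest p of 5 against 5 is 0.00794. Adjusted over 8 regions it becomes 0.0635 for a region that alone is so low. Such a region cannot pass unless other regions have low p-values as well. Both sets together were permuted within sets. The difference between sets in the LPS effect was permuted within treatments after centring, which is approximate. Single CpGs were tested with edgeR 4.0.16 in R 4.3.3 (quasi-likelihood, 1 intercept per sample, all 20 samples, adjusted over 135 CpGs). A call needed an adjusted p under 0.05. The depth relation used 100000 permutations. The edgeR script was tested on simulated data, with 20 CpGs changed per run in 3H LPS samples. The spread between samples was set there and not taken from these data. Other software was matplotlib 3.10.9, scipy 1.17.1, numpy 2.4.6, limma 3.58.1, pandas 2.3.3 and Python 3.11.15.

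The CpGs, measures and tests were chosen with earlier results of these data known. The CpGs named one by one were the outermost ones, those with the highest and lowest mean, the neighbours with the largest step, the one with the largest spread between samples, and the one with the smallest edgeR p in each comparison. Others named (44944888, 44944891, 44944798, 44944846, 44944967, 44944972 and 44944990) were picked after their values were seen. Alternatives were weighting by reads, medians, a logit scale, other slope measures, minimums of 5, 30 and 100 reads, only CpGs read in all 20 samples, limma, fits of the compared groups alone, an exact test per CpG, a replicate block, and leaving out samples.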

Additional observations from a re-analysis of the deposited data

Results flagged for a closer look

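In 44 groups of 5 values tested for a distant sample, 3 were picked out, where chance at 1 in 20 gives about 2.20. The gap to the nearest other value, as a share of the range of all 5, was 0.752, 0.789 and 0.869 in the order given here. The mean of the region was 14.3% in 3H control replicate 5, with the other 3H controls between 18.2% and 19.5%. In the same sample the most methylated CpG, 44945108, was at 42.9%, against 51.0% to 53.2% in the other 3H controls. This CpG is part of the region mean, so these results of 3H control replicate 5 are not separate events. In 6H LPS replicate 5 the slope was 2.09 percentage points per 100 bp, against 0.199 to 0.447 in the other 6H LPS samples. This sample had a median of 91 reads, and 3H control replicate 5 had 3563.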

How the results depend on the processing

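No result passed its threshold under any alternative that was run, apart from the relation of depth and deviation, whose direction counting error alone gives. Between groups of 5 a region could not pass unless other regions also had low p-values, since the smallest p adjusts to 0.0635. Failing to pass there is no sign of stability. In each comparison 0 of the 24 CpGs were called by each tool and setting. For the exact test between groups of 5 this was nearly fixed beforehand by its smallest p. A minimum of 5 reads and the limit to CpGs read in all 20 samples kept the same 24 CpGs in every sample. Region values and their unadjusted p-values could not change under either setting. Coverage minimums of 30 and 100 reads left no CpG of this region, because 3H LPS had too few samples of that depth. These minimums gave no value for region or CpG results. The relation of depth and deviation kept its direction and call, at -0.747 with the lowest reads in place of the median and -0.647 with a minimum of 30 reads. The lowest and the median reads were nearly equal within a sample, so the first of these values could hardly differ.

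Some differences of means that had not passed changed sign, always without passing. Without the 7 samples under 100 reads, where 3H LPS keeps 1 sample, the region mean difference was 2.20 between LPS and control samples of the 6H set and -0.363 between 6H and 3H controls. With medians it was -0.973 between 6H and 3H LPS samples and -0.997 for the 6H effect minus the 3H effect, which was -0.00818 on the logit scale. Values that kept their sign but moved far under these limits are given with the results. The dip of the 6H effect minus the 3H effect was 4.29 without samples under 100 reads (permutation p = 0.0238, adjusted p = 0.190). The dip over both sets was -0.0151 on the logit scale, -0.353 without samples under 100 reads and -0.196 without those under 50, a limit chosen after seeing the data.

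Leaving out 1 sample at a time, region mean differences ranged from -1.89 to 0.0472 for LPS minus control in the 3H set, from -1.15 to 0.893 in the 6H set and from -1.02 to 0.000914 over both. They ranged from -0.487 to 1.55 for 6H minus 3H controls and from -0.255 to 1.78 for the 6H effect minus the 3H effect. Slopes ranged from -0.762 to 0.176 for LPS minus control in the 3H set and from -0.762 to 0.177 for 6H minus 3H LPS samples. Dips ranged from -1.86 to 0.354 for LPS minus control in the 3H set and from -0.394 to 0.713 over both sets, below 0 without 3H LPS replicate 3 or 6H LPS replicate 1. The cause of these changes was not tested.

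The labels give control and LPS samples of both sets the same L numbers without explaining them, so whether same-numbered samples are paired is open. Over 132 or 135 CpGs of the whole series, not of this region alone, their deviations correlated between -0.257 and 0.428, over 0.1 in 8 of 20 pairs. Of the 20, 5 matched their own number best, where a random match among 5 has a chance of 1 in 5. With the replicate block the 3H and 6H differences of region means are -0.891 and -0.158 by arithmetic, and only the p can change. It was 0.750 and 1 (exact sign-flip permutation test), where 5 pairs cannot give less than 0.0625. No call changed.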
